A study of Mus musculus with 15 samples.

Results

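The 9 cell-cell adhesion and junction genes described here encode cadherins (*Cdh2*, *Cdh11*), catenins of the cadherin complex (*Ctnna1*, *Ctnnd1*, *Jup*), tight junction proteins (*Tjp1*, *F11r*), an adaptor to the membrane skeleton (*Ank2*) and a gap junction channel (*Gja1*). They were taken from a list of symbols and kept if they had a row in each of the 2 expression tables of the study, one for culture with 11677 genes and one for organoid region with 11299 genes. This left 8 of the 9 genes among the 11041 genes found in both tables, because *F11r* had a row in the culture table only. It is described with its culture values and enters no count over the 8 members. No level is given for *Cdh1* (E-cadherin), which had no row in either table used here.

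All 15 samples came from 21EM15, a single established line of mouse lens epithelial cells labelled wild type, so the results describe this line alone. In the 2D group (4 samples) the cells grew as a layer on dishes. In the 3D group (4 samples) they grew as organoids in round-bottom wells that do not allow attachment, with many organoids pooled into a sample. Per the paper's methods, the dishes were harvested before the cells covered them fully, and the organoids were cultured for longer than such dishes usually are. Both differences coincide with 3D against 2D growth and cannot be told apart from it. The Internal (4 samples) and External (3 samples) groups were cut by laser microdissection from sections of pooled organoids, and their RNA was isolated with another kit than that of the 2D and 3D samples. The study asked what 3D growth changes in these cells and whether the inside of an organoid differs from its rim. Libraries were made from the 3′ ends of messenger RNA, and the expression values are log2 CPM, the reads of a gene scaled to a library of a fixed size on a log2 scale, in which a step of 1 is a doubling.

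Cells of an epithelium hold together through several kinds of contact. In the adherens junction, cadherins of neighbouring cells bind each other outside the cell, while inside they bind p120-catenin (*Ctnnd1*) and either beta-catenin (*Ctnnb1*) or plakoglobin (*Jup*), which recruit alpha-catenin (*Ctnna1*) and through it actin. Tight junctions seal the space between cells and are organised by ZO-1 (*Tjp1*), gap junctions such as those of connexin 43 (*Gja1*) pass small molecules between cells, and ankyrins (*Ank2*, *Ank3*) tie membrane proteins to spectrin. In the lens, N-cadherin (*Cdh2*) joins epithelial and fiber cells, connexin 43 is the main connexin of the epithelium, and ankyrin-B (*Ank2*) belongs to the membrane skeleton of fiber cells.

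Total reads over the genes of the tables lay between 7305053 and 9362587 per culture sample and between 4044230 and 11702504 per region sample. A gene with 3 reads corresponds to 0.312 to 0.409 CPM in the culture samples and to 0.248 to 0.802 CPM in the region samples, and a difference at that level was not detectable. Of 7 genes listed as markers of lens epithelium, *Pax6*, *Six3* and *Cryab* had rows in both tables, while *Foxe3*, *Cdh1*, *Cryaa* and *Pitx3* had none. *Cryab*, an alpha-crystallin, is abundant in fiber cells and does not mark the epithelium, so sums are also given without it. Of 8 lens fiber markers, 0 had a row in the culture table and 1, *Bfsp1*, in the region table, and of 8 keratin epithelium markers none had a row in either. By contrast 7 of 8 fibroblast markers had a row in the culture table and 6 in the region table. The 2 tables had been normalized separately, so every comparison was made within a table.

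The 2 culture samples that carry the number 2 in the labels stood apart for several members. Of 9892 culture genes that averaged 2 log2 CPM or more, 51 genes (0.516%) were lowest in sample 2 of both groups and lay at least 2 log2 units under the median of the other 3 samples in each, against 0 genes for the samples numbered 1, 3 or 4. The members *Ctnnd1* and *Gja1* were among the 51. The test was therefore also run without both samples, and what set them apart was not tested.

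Of the cadherins, *Cdh2* passed the test in the culture comparison and *Cdh11* did not, and whether their changes differ was not tested. *Cdh2*, on mouse chromosome 18 (GRCm38, chr18:16588877-16809246, minus strand), stood at 6.89, 6.92, 6.59 and 7.39 log2 CPM in the 2D samples and at 6.48, 6.31, 6.12 and 6.15 log2 CPM in the 3D samples. Every 3D sample was under every 2D sample. With 3D minus 2D, its log2 fold change was -0.68 with a standard error (SE) of 0.17, a level 1.6-fold lower in 3D, and the adjusted p by limma was 0.0214. *Cdh2* was the only one of the 8 members to pass the test in this comparison (1 of 8, or 12.5%), beside 19.0% of all genes of the table at an adjusted p under 0.05, with 9.74% higher and 9.25% lower in 3D. The call was lost without 3D sample 3 (adjusted p = 0.0677) and without 3D sample 4 (adjusted p = 0.0655), and over all 17 alternatives the adjusted p ranged from 0.0163 to 0.0677. Without both samples numbered 2 it was 0.0389.

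*Cdh11*, a cadherin known from mesenchymal and bone-forming cells (GRCm38, chr8:102632095-102785642, minus strand), stood at 4.68, 3.25, 0.82 and 2.76 log2 CPM in the 2D samples, from 243, 68, 13 and 63 reads. In the 3D samples it stood at 4.71, 4.36, 4.66 and 4.65 log2 CPM. The 3D samples lay close together, whereas the 2D samples were spread over almost the whole range, and 2D sample 1 reached the level of the 3D samples. Its log2 fold change of 1.72 (SE 0.63) did not pass the test (adjusted p = 0.0807). Without 2D sample 1 it was 2.32 with an adjusted p of 0.0124, without 2D sample 3, the one with 13 reads, it was 1.03 (adjusted p = 0.109), and over all 17 alternatives the adjusted p ranged from 0.0124 to 0.162. Without both samples numbered 2 the adjusted p was 0.0989.

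The balance between both cadherins was read within each sample as the difference *Cdh11* minus *Cdh2*, which no scaling between libraries can change. It ran from -5.78 to -2.21 log2 units in the 2D samples and from -1.96 to -1.46 in the 3D samples, so the groups did not overlap. As a share of the reads of both genes, *Cdh11* held 1.56% to 17.7% in the 2D samples and 20.3% to 26.5% in the 3D samples. *Cdh2* gave more reads than *Cdh11* in each of the 15 samples. These reads come from transcript ends and are not divided by length, and the shares are described without a test.

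Among the catenins, alpha-catenin had the smallest spread, which was also the smallest of the members in both culture groups. *Ctnna1* (GRCm38, chr18:35118859-35254779, plus strand) stood at 8.0, 7.91, 8.21 and 8.12 log2 CPM in the 2D samples and at 7.74, 7.69, 7.75 and 7.66 log2 CPM in the 3D samples. The groups did not overlap, and the SD within 3D was 0.043 (n = 4). A log2 fold change of -0.35 (SE 0.11) was fitted, with a 95% interval from -0.59 to -0.10, and the adjusted p of 0.0517 missed the threshold. It passed without 2D sample 2 (adjusted p = 0.0297), and over all 17 alternatives the adjusted p ranged from 0.0297 to 0.151. With *Cdh2* it made 2 of 8 members whose 2D and 3D samples did not overlap, beside 24.0% of all genes.

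*Jup*, which encodes plakoglobin, is on the minus strand of chromosome 11 (GRCm38, chr11:100368958-100397763). It stood at 4.1, 3.99, 4.45 and 4.92 log2 CPM in the 2D samples and at 4.99, 4.69, 5.56 and 5.17 log2 CPM in the 3D samples. Only 2D sample 4 reached into the range of the 3D samples. *Jup* had a log2 fold change of 0.74 (SE 0.25), a level 1.67-fold higher in 3D, with an adjusted p of 0.0625. *Jup* passed without 2D sample 4 (adjusted p = 0.0321) and without 3D sample 2 (adjusted p = 0.0481), and over all 17 alternatives the adjusted p ranged from 0.0234 to 0.173. Its partner in the same position of the complex, beta-catenin, had a log2 fold change of -0.04 (SE 0.13, adjusted p = 0.870). The share of *Jup* in the reads of *Jup* and *Ctnnb1* was 3.63% to 5.99% in the 2D samples and 6.31% to 8.77% in the 3D samples, without overlap.

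*Ctnnd1* (GRCm38, chr2:84600071-84650765, minus strand) had the widest spread of the members. It stood at 6.32, -0.12, 4.14 and 5.27 log2 CPM in the 2D samples, from 759, 5, 148 and 369 reads, and at 4.72, 0.98, 4.70 and 4.17 log2 CPM in the 3D samples, from 205, 14, 198 and 143 reads. In both groups the lowest value was that of sample 2, which lay 5.39 log2 units under the median of the other 2D samples and 3.72 log2 units under that of the other 3D samples. For *Ctnnd1* the log2 fold change of -0.26 had an interval from -3.06 to 2.54 (adjusted p = 0.906), so neither a rise nor a fall of several fold can be told from these samples. Without both samples numbered 2 the log2 fold change was -0.71 (adjusted p = 0.283). Its sign turned without 2D sample 1 (0.54), 2D sample 4 (0.20) or 3D sample 2 (0.63).

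**Figure D1:**
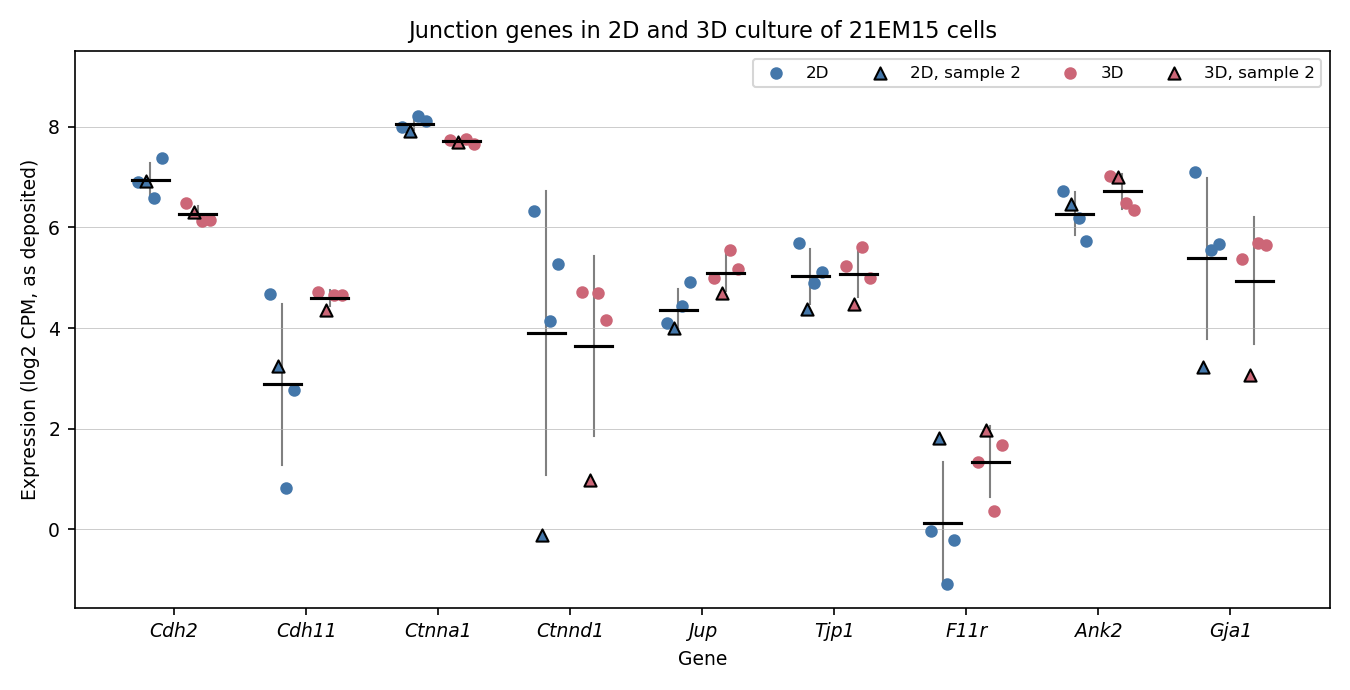
Expression of the 9 junction genes in the culture samples, in log2 CPM on the vertical axis, with a point for each 2D (blue) and 3D (red) sample, a triangle for the samples numbered 2, a black bar for the mean and a gray line for 1 SD to either side (n = 4 per group). The triangles of *Ctnnd1* and *Gja1* lie far under the other points of both groups, and *Cdh2* is the gene whose groups separated with an adjusted p of 0.0214.

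The tight junction members and connexin 43 did not pass the test in the culture comparison. *Tjp1* (GRCm38, chr7:65296165-65527781, minus strand) stood at 5.70, 4.38, 4.89 and 5.12 log2 CPM in the 2D samples and at 5.24, 4.48, 5.61 and 5.0 log2 CPM in the 3D samples. The groups covered the same range, sample 2 was the lowest in each, and the log2 fold change was 0.06 with an interval from -0.60 to 0.72 (adjusted p = 0.910). Its sign turned without 2D sample 2 (-0.16) or 3D sample 3 (-0.12).

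*Gja1* (GRCm38, chr10:56377330-56402513, plus strand) stood at 7.10, 3.23, 5.56 and 5.66 log2 CPM in the 2D samples and at 5.36, 3.07, 5.68 and 5.66 log2 CPM in the 3D samples. Sample 2 lay 5.41-fold under the median of the others in 2D and 6.01-fold under it in 3D, while 2D sample 1 was the highest. The log2 fold change was -0.44 (SE 0.77, adjusted p = 0.724), and -0.54 (adjusted p = 0.299) without both samples numbered 2. The sign turned without 2D sample 1 (0.12) or 3D sample 2 (0.18). *Gja1* minus *Tjp1* within a sample overlapped between 2D (-1.15 to 1.4) and 3D (-1.41 to 0.66).

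*F11r*, which encodes the junctional adhesion molecule JAM-A (GRCm38, chr1:171437535-171464603, plus strand), was the lowest of the 9 genes, with 7, 24, 2 and 6 reads in the 2D samples and 18, 30, 8 and 24 reads in the 3D samples. Here sample 2 held the most reads in both groups, the reverse of *Ctnnd1* and *Gja1*. Its log2 fold change was 1.22 (SE 0.62, adjusted p = 0.198), and it passed the test only without 2D sample 2 (1.78, adjusted p = 0.0353) among the 16 alternatives that could be run (adjusted p up to 0.397).

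*Ank2* (GRCm38, chr3:126921612-127499350, minus strand) stood at 6.72, 6.46, 6.18 and 5.72 log2 CPM in the 2D samples and at 7.03, 7.0, 6.49 and 6.34 log2 CPM in the 3D samples. The groups overlapped, and the log2 fold change was 0.44 (SE 0.23, adjusted p = 0.209). It was 0.26 (adjusted p = 0.459) without 2D sample 4, the lowest of the 8, and over all 17 alternatives the adjusted p ranged from 0.0358 to 0.459. The related *Ank3*, which encodes ankyrin-G, had a log2 fold change of -0.41 (SE 0.17, adjusted p = 0.113).

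Of the 8 members, 0 passed the stricter thresholds used in the study's results (an adjusted p below 0.01 together with a change of over 1 log2 unit), beside 4.43% of all genes. By limma 4 of the 8, *Cdh2*, *Cdh11*, *Ctnna1* and *Jup*, had an unadjusted p under 0.05, as did 33.7% of all genes. Without both samples numbered 2 it was again *Cdh2* alone that passed, and the adjusted p of the other 7 ran from 0.0522 (*Ctnna1*) and 0.0563 (*Jup*) to 0.911 (*Tjp1*). The median log2 fold change was -0.10 over the 8 members and -0.03 over all genes.

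Some markers of the listed cell types moved with this comparison. The summed level of the 7 fibroblast markers with a row was 116.9 to 280.4 CPM in the 2D samples and 552.4 to 812.3 CPM in the 3D samples, and 4 of the 7 (*Col3a1*, *Dcn*, *Pdgfrb*, *Thy1*) were higher in 3D at an adjusted p under 0.05, beside 9.74% of all genes. The other 3, *Col1a1* (0.27, adjusted p = 0.671), *Pdgfra* (0.81, adjusted p = 0.219) and *Col1a2* (-1.47, adjusted p = 0.0574), did not pass, and the value of *Col1a2* had the opposite sign. The summed level of *Pax6*, *Six3* and *Cryab* was 781.8 to 1109 CPM in 2D and 1328 to 1592 CPM in 3D, and without *Cryab* 517.1 to 591.8 CPM and 686.3 to 906.4 CPM. Their part in the changes of the junction genes was not tested. In such bulk samples fewer cells of a kind and less RNA per cell cannot be told apart.

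Between the regions of the organoid, 3 of the 8 members were higher inside and none was lower (3 of 8, or 37.5%), beside 21.7% of all genes at an adjusted p under 0.05, with 9.58% higher and 12.1% lower in the internal samples. *Jup*, *Ank2* and *Cdh11* were the 3. The median log2 fold change, internal minus external, was 0.76 over the 8 members and 0.04 over all genes.

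*Jup* stood at 6.26, 6.54, 6.72 and 6.49 log2 CPM in the internal samples, from 509, 803, 460 and 1080 reads, and at 5.09, 5.18 and 5.06 log2 CPM in the external samples, from 205, 165 and 124 reads. The 3 external samples, which the authors kept after viewing a principal component plot, agreed within an SD of 0.06. The groups lay more than 1 log2 unit apart. This is a log2 fold change of 1.39 (SE 0.19), a level 2.62-fold higher inside, with an adjusted p of 9.8e-06 by limma. It passed in every one of 15 alternatives, with adjusted p from 5.41e-06 to 0.00476. *Ctnnb1* had a log2 fold change of 0.33 (SE 0.14) and did not pass (adjusted p = 0.101), except without external sample 1 (0.48, adjusted p = 0.0224). *Jup* held 16.5% to 22.1% of the reads of *Jup* and *Ctnnb1* in the internal samples and 8.66% to 11.7% in the external samples, without overlap.

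*Ank2* stood at 9.36, 9.31, 8.94 and 9.5 log2 CPM in the internal samples, from 4381, 5485, 2144 and 8753 reads, and at 8.23, 7.76 and 8.25 log2 CPM in the external samples, from 1817, 993 and 1138 reads. It had the highest mean of the members in both regions, and every internal sample was above every external one. This is a log2 fold change of 1.2 (SE 0.15), a level 2.30-fold higher inside, with an adjusted p of 4.38e-06. It passed in every one of 15 alternatives, with adjusted p from 1.33e-06 to 0.0147. *Jup* and *Ank2* were also the 2 of 8 members past the stricter thresholds, beside 7.62% of all genes.

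*Ank3* went the other way. It stood at 7.98, 7.91, 7.91 and 8.13 log2 CPM in the internal samples and at 9.14, 9.08 and 9.51 log2 CPM in the external samples, without overlap. Its log2 fold change was -1.26 (SE 0.14, adjusted p = 5.93e-07), a level 2.40-fold lower inside, and it passed in every one of 15 alternatives (adjusted p from 1.73e-07 to 0.00731). As a share of the reads of both ankyrin genes, *Ank2* held 67.1% to 72.5% in the 4 internal samples, 28.5% to 34.6% in the 3 external samples, 27.4% to 36% in the 4 3D samples and 14.9% to 27.2% in the 4 2D samples. *Ank2* gave more reads than *Ank3* in the internal samples alone. The *Ank2* and *Ank3* pair was chosen after the values were seen, and the culture and region shares come from RNA isolated in different ways.

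Since *Jup* and *Ank2* rose together inside the organoid, the 250 bases before the RefSeq start site of each are shown here on the strand of the gene, 5′ to 3′. They come from RefSeq (GRCm38.p6), whose table held entries for 6 of the 9 genes, with 4 start sites for *Ank2*, of which the outermost was taken. In the GENCODE annotation *Ank2* begins further out. Of the 250 bases shown for it, 235 lie inside the GENCODE gene, the marked TATAAA match among them, while for *Jup* 0 of the 250 do. Capitals mark matches on either strand to the GC box GGGCGG and to the TATA box TATAAA, which do not overlap.
Jup, chr11:100397791-100398040, minus strand: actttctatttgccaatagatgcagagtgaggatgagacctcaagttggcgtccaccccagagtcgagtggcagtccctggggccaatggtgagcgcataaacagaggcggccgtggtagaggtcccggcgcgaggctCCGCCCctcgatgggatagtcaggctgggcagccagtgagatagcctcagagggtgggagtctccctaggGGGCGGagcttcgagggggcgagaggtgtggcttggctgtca
Ank2, chr3:127499116-127499365, minus strand: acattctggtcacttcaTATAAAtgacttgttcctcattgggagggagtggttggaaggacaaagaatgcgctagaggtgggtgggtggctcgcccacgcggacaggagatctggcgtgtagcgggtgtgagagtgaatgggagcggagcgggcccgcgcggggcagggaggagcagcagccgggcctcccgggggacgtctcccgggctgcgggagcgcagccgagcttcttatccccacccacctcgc

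The *Jup* window held 2 GC boxes and no TATA box, and the *Ank2* window 1 match to the TATA box and no GC box. This match lies near the end of the window far from the start site, and whether it acts as a TATA box of that start was not tested. Of 32851 promoter windows of the same length in the table, 32.7% held a GC box and 12.4% a TATA box. Neither window held the E-box CACCTG on either strand, which 17.2% of all windows held. Both windows were rich in G and C, at 62.0% for *Jup* and 64.4% for *Ank2*, beside a median of 52.4% over all windows. No motif searched was found in both windows, and a match or its lack in this window says nothing about a factor.

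*Cdh11* was the third member called between regions. It stood at 5.62, 5.87, 5.10 and 4.96 log2 CPM in the internal samples, from 326, 505, 148 and 373 reads, and at 5.26, 4.28 and 4.01 log2 CPM in the external samples, from 231, 88 and 59 reads. External sample 1 lay among the internal samples, so the groups overlapped. Its log2 fold change was 0.87 (SE 0.30, adjusted p = 0.0379), a level 1.83-fold higher inside. The call was lost without internal sample 1 (adjusted p = 0.103) or 2 (0.134), without external sample 2 (0.154) or 3 (0.199), without a variance trend (0.156), with precision weights (0.106) and after median centring (0.0553). Over all 15 alternatives the adjusted p ranged from 0.00586 to 0.199.

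*Cdh2* did not pass the test between regions. It stood at 5.94, 6.12, 5.90 and 6.36 log2 CPM in the internal samples and at 6.24, 6.0 and 6.38 log2 CPM in the external samples. The groups covered the same range, and the log2 fold change of -0.13 had an interval from -0.52 to 0.26 (adjusted p = 0.684). *Cdh11* minus *Cdh2* within a sample ran from -1.4 to -0.24 log2 units inside and from -2.37 to -0.98 outside, with overlap.

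*Ctnna1* did not pass between the regions either. It stood at 7.50, 7.51, 7.64 and 7.62 log2 CPM in the internal samples and at 7.84, 7.50 and 7.41 log2 CPM in the external samples. The log2 fold change was -0.02 with an interval from -0.32 to 0.29 (adjusted p = 0.952), which leaves room for a difference of up to about 0.3 log2 units in either direction. Its sign turned without internal sample 1 or 2 (0.01 and 0.00) and without external sample 1 (0.11).

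*Ctnnd1* was the lowest member in the region samples, with 13, 87, 30 and 30 reads inside and 43, 9 and 1 reads outside. The values ran from 1.17 to 3.37 log2 CPM inside and from -0.81 to 2.88 log2 CPM outside, and the groups overlapped. The log2 fold change of 1.13 (SE 0.80) did not pass the test (adjusted p = 0.343), and the interval from -0.52 to 2.78 covers a small fall as well as a rise of several fold. It was 0.18 without external sample 3, which held 1 read, and 2.03 without external sample 1, and over all 15 alternatives the adjusted p ranged from 0.105 to 0.903.

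*Tjp1* stood at 5.25, 5.48, 5.41 and 5.23 log2 CPM in the internal samples and at 5.13, 4.41 and 4.54 log2 CPM in the external samples. The groups did not overlap, though external sample 1 came within 0.1 log2 units of the internal samples. The log2 fold change was 0.65 (SE 0.24) and missed the threshold (adjusted p = 0.0609). It passed without external sample 1 (0.87, adjusted p = 0.0210), and over all 15 alternatives the adjusted p ranged from 0.0210 to 0.224. *Jup*, *Tjp1* and *Ank2* made 3 of 8 members whose regions did not overlap, beside 29.0% of all genes.

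*Gja1* stood at 4.07, 4.70, 4.27 and 3.86 log2 CPM in the internal samples and at 5.32, 3.96 and 4.08 log2 CPM in the external samples. External sample 1 was the highest of all and the other 2 external samples lay within the internal range. The log2 fold change was -0.23 with an interval from -0.93 to 0.48 (adjusted p = 0.684), and it turned to 0.21 without external sample 1. Read within a sample, *Gja1* minus *Tjp1* ran from -1.37 to -0.78 inside and from -0.46 to 0.19 outside, so that *Gja1* was lower relative to *Tjp1* in every internal sample. External sample 1 was the highest of the external samples for *Cdh11*, *Ctnna1*, *Ctnnd1*, *Tjp1* and *Gja1*, and why was not tested.

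**Figure D2:**
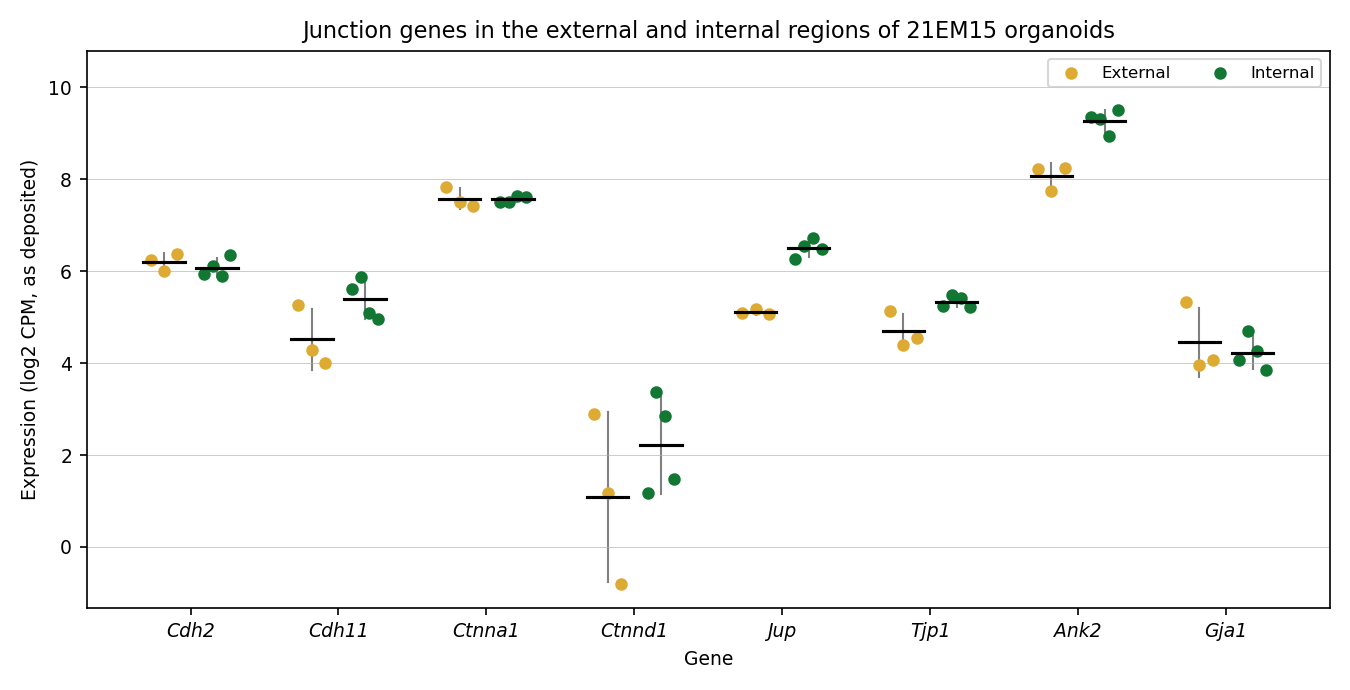
Expression of the 8 members with a row in the region table, in log2 CPM on the vertical axis, with a point for each external (yellow, n = 3) and internal (green, n = 4) sample, a black bar for the mean and a gray line for 1 SD to either side. *Jup* and *Ank2* are higher in every internal sample, by 1.39 and 1.2 log2 units on average.

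**Figure D3:**
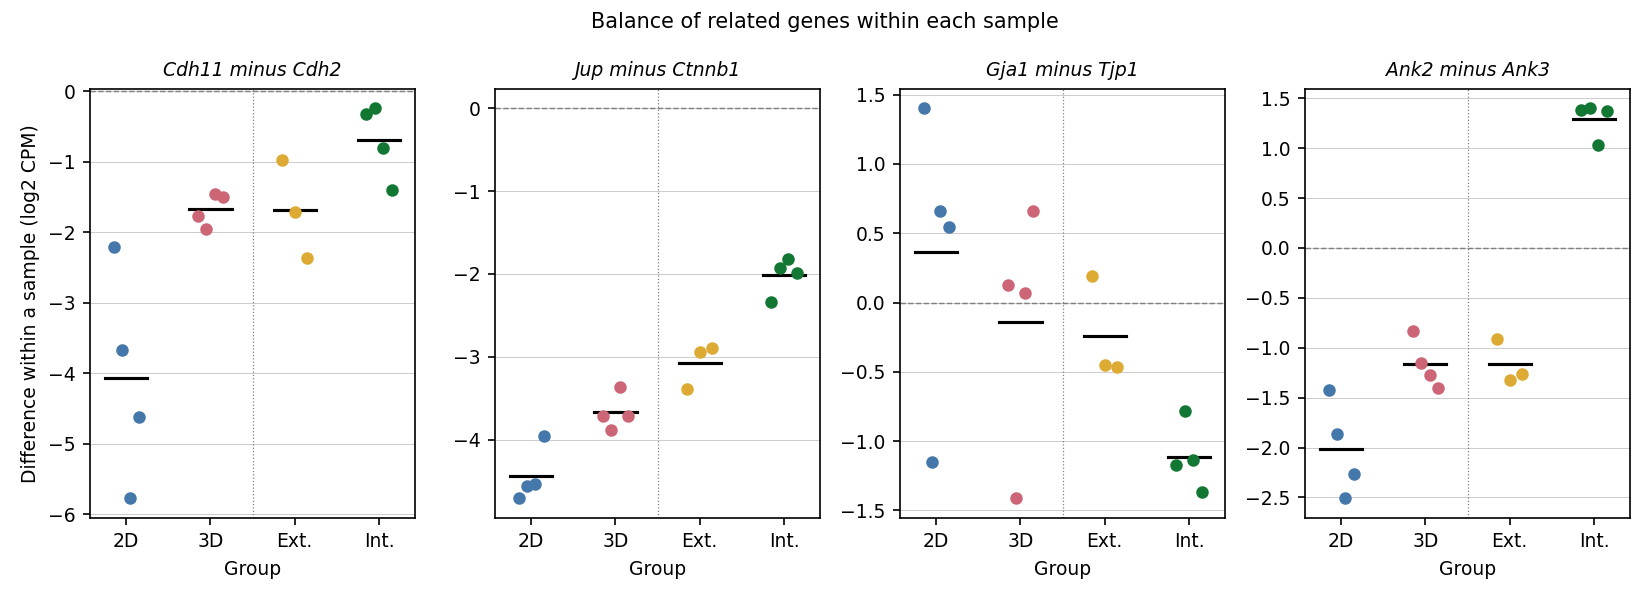
Difference between related genes within each sample, in log2 CPM on the vertical axis (a separate scale in each panel), for the 2D, 3D, external and internal samples, with a point for each sample and a black bar for the mean. *Ank2* minus *Ank3* is above 0 in the 4 internal samples (1.03 to 1.4) and under 0 in the other 11.

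The markers also moved between regions. The summed level of *Pax6*, *Six3* and *Cryab* was 959.7 to 1257 CPM inside and 719.8 to 848.7 CPM outside, and without *Cryab* 563.1 to 742.5 CPM and 424.8 to 559.9 CPM. *Pax6* (log2 fold change 0.65, adjusted p = 0.00601) and *Cryab* (0.43, adjusted p = 0.0410) were higher inside, and *Six3* (0.39, adjusted p = 0.071) did not pass. The summed level of the 6 fibroblast markers was 533.3 to 614.6 CPM inside and 281 to 667.5 CPM outside, with overlap. Of these 6, *Col3a1* (log2 fold change 1.59, adjusted p = 3.68e-05) and *Pdgfrb* (0.87, adjusted p = 0.00102) were higher inside and *Col1a1* (-1.56, adjusted p = 0.000206) was lower. *Bfsp1*, the fiber marker with a row, was at 1.95 to 4.65 CPM inside and 0.303 to 2.91 CPM outside, with a log2 fold change of 2.22 that did not pass the test (adjusted p = 0.109). Their part in the changes of *Jup* and *Ank2* was not tested.

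In order of level, *Ctnna1* led in both culture groups and lay above the next gene without overlap, while *Ank2* and *Cdh2* came next and exchanged places (*Cdh2* 6.95 and *Ank2* 6.27 log2 CPM on average in 2D, *Ank2* 6.71 and *Cdh2* 6.27 in 3D), overlapping each other in both. From *Jup* down, neighbouring genes in the order overlapped in 3D, and in 2D neighbours overlapped from *Cdh2* down. In the internal samples the order was *Ank2*, *Ctnna1*, *Jup*, *Cdh2*, *Cdh11*, *Tjp1*, *Gja1* and *Ctnnd1*, in which *Jup* overlapped *Cdh2* and *Cdh11* overlapped *Tjp1*. In the external samples *Cdh2* stood above *Jup* without overlap, at 6.20 against 5.11 log2 CPM on average. These are levels of 3′ reads, not divided by transcript length.

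Most partners of the members did not pass the test. Afadin (*Afdn*), vinculin (*Vcl*) and beta-II spectrin (*Sptbn1*), which link junctions and membrane to the cytoskeleton, did not pass in either comparison, nor did *Jam3*, a relative of *F11r*. Alpha-II spectrin (*Sptan1*), to which ankyrins connect through its beta partner, was lower inside, with 8.22 to 8.41 log2 CPM against 8.73 to 9.08 and a log2 fold change of -0.56 (SE 0.14, adjusted p = 0.00396), a call lost without a variance trend (0.0675). *Vcl* passed without 2D sample 2 (-0.82, adjusted p = 0.0196), without both samples numbered 2 (-0.68, adjusted p = 0.0374) and, between regions, without external sample 1 (0.76, adjusted p = 0.00616).

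**Figure D4:**
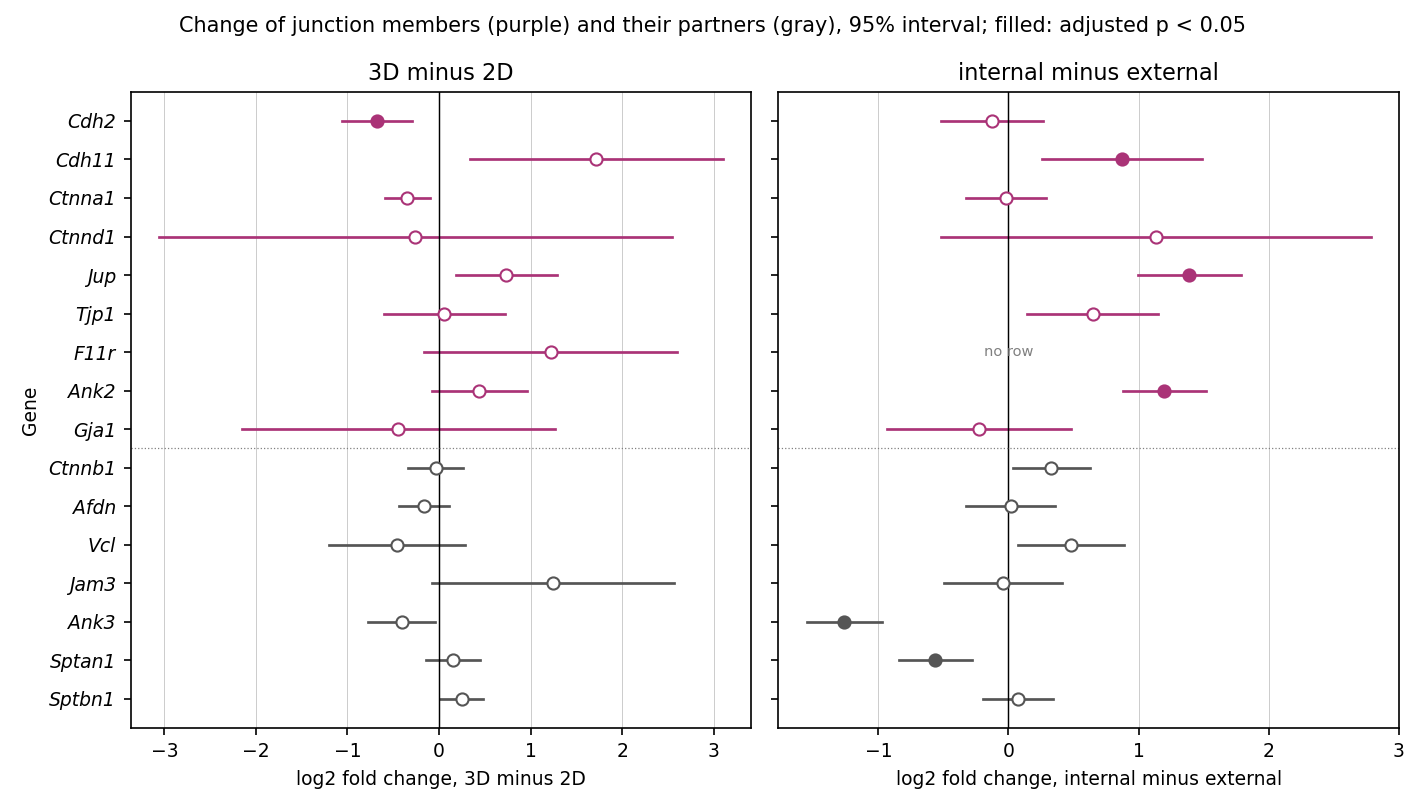
Log2 fold changes (horizontal axis) of the 9 junction genes (purple) and 7 partners (gray), 3D minus 2D on the left and internal minus external on the right, with 95% intervals from limma and filled points for an adjusted p under 0.05. *Cdh2* is filled on the left, and *Cdh11*, *Jup*, *Ank2*, *Ank3* and *Sptan1* on the right.

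Connexin 45 (*Gjc1*), another gap junction channel, stood at 4.25, 4.05, 3.35 and 4.37 log2 CPM in the 2D samples and at 4.08, 4.05, 4.12 and 4.07 log2 CPM in the 3D samples, a log2 fold change of 0.08 (SE 0.23, adjusted p = 0.846) whose sign turned without 2D sample 3 (-0.14). Between regions it was at 2.78 to 3.55 log2 CPM inside and at 4.09 to 4.42 log2 CPM outside, without overlap, and it was lower inside with a log2 fold change of -1.15 (SE 0.37, adjusted p = 0.0275). Its call was lost without internal sample 1 (0.0626) or 2 (0.0653), or external sample 1 (0.0978), 2 (0.0679) or 3 (0.0638).

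A wider set of 172 genes in 7 lists placed the members among the rest of the junction machinery. Of these, 89 had a row in the culture table, and 8 were higher and 8 lower in 3D while 73 did not pass (18.0% passed, beside 19.0% of all genes). Their median log2 fold change was -0.05. Between regions 86 were measured, of which 15 were higher and 9 lower inside and 62 did not pass (27.9% passed, beside 21.7% of all genes), with a median of 0.12. Without the 9 genes of the title set the counts were 8 higher and 7 lower of 80 in culture and 12 higher and 9 lower of 78 between regions. The share of junction genes called was thus close to that of all genes in culture.

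In the adherens junction list 2 of 21 genes were higher and 4 lower in 3D, beside 9.74% and 9.25% of all genes. *Ctnnd2*, the delta-catenin relative of *Ctnnd1*, was the largest of the 4, with 4.89 to 6.60 log2 CPM in the 2D samples and 3.18 to 4.58 in the 3D samples, a log2 fold change of -1.99 (SE 0.43, adjusted p = 0.0110) that passed in all 17 alternatives. *Arvcf*, another p120-type catenin, was higher in 3D (1.17, SE 0.33, adjusted p = 0.0341), a call lost without 2D sample 1 or 2 (adjusted p = 0.0598 and 0.0529) and without 3D sample 1, 3 or 4 (0.0831, 0.108 and 0.0727). The others were T-cadherin (*Cdh13*, 0.73), which lacks a part inside the cell, among those higher, and *Pkp4* (-0.81), a plakophilin, and *Ctnnbip1* (-0.72) among those lower, named after their values were seen. Between regions *Pkp4* (-0.97) and *Ctnnbip1* (-0.87), an inhibitor of beta-catenin, were again lower inside. They were the 2 of 22 genes that fell, and *Cdh11* and *Jup* were the 2 that rose, beside 12.1% and 9.58% of all genes.

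In the tight junction list 2 of 25 genes were higher and 1 lower in 3D, beside 9.74% and 9.25% of all genes. *Jam2*, an adhesion molecule of the *F11r* family, had 3 to 22 reads in the 2D samples and 30 to 128 reads in the 3D samples, without overlap, and a log2 fold change of 2.82 (SE 0.55, adjusted p = 0.00743). Claudin-1 (*Cldn1*), which builds the strands of tight junctions, stood at 2.71, -0.35, 1.23 and 1.75 log2 CPM in the 2D samples and at 3.77, 1.98, 4.37 and 3.86 log2 CPM in the 3D samples, again with sample 2 lowest in both. Its log2 fold change was 2.16 (SE 0.66, adjusted p = 0.0438), and the call was lost without 2D sample 2, 3 or 4 (adjusted p = 0.0572, 0.0822 and 0.0732) and without 3D sample 1, 3 or 4 (0.103, 0.128 and 0.114). It was also lost without a variance trend (0.0694), with a robust prior (0.0553) and with precision weights (0.0748). Over all 17 alternatives its adjusted p ranged from 0.00495 to 0.128, and that of *Jam2* from 0.00288 to 0.0301. *Ybx3*, a DNA-binding protein that docks on ZO-1, was lower in 3D by a log2 fold change of -0.61 (named after its value was seen).

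Between regions 4 of 23 tight junction genes were higher inside and 3 lower, beside 9.58% and 12.1% of all genes. Paracingulin (*Cgnl1*) was at 4.16 to 5.24 log2 CPM inside and at 2.35 to 3.28 log2 CPM outside, a log2 fold change of 1.93 (SE 0.37, adjusted p = 0.000472). *Magi2*, a scaffold protein of junctions, was at 7.14 to 7.59 log2 CPM inside and at 6.03 to 6.36 log2 CPM outside, a log2 fold change of 1.18 (SE 0.17, adjusted p = 1.26e-05). Both passed in every one of 15 alternatives. The receptor *Cxadr* was lower inside, with 17 to 43 reads against 39 to 82 and a log2 fold change of -1.54 (SE 0.48, adjusted p = 0.0237). Its call was lost without internal sample 1 (0.0601) or external sample 1 (0.0785), 2 (0.0850) or 3 (0.0529).

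Desmosomes, which join cells through plakoglobin and desmosomal cadherins, were thinly covered. Of 15 desmosome genes 4 had a row in the culture table and 3 in the region table, none of them a desmoglein, a desmocollin or desmoplakin. None of the 4 passed in culture, beside 19.0% of all genes. There the plakophilins *Pkp1* (0.32) and *Pkp2* (-0.32), *Perp* (-0.35) and *Ppl* (-0.40) had adjusted p from 0.291 to 0.772, named after their values were seen. Between regions *Pkp2* (-0.45, adjusted p = 0.300) and *Perp* (0.0042, adjusted p = 0.993) did not pass either. Periplakin (*Ppl*) was higher inside, at 4.18 to 5.04 log2 CPM against 2.82 to 4.47, with a log2 fold change of 1.15 (SE 0.37, adjusted p = 0.0275). This call was lost without a variance trend (0.111), without internal sample 1 (0.0941) or 2 (0.0573) and without external sample 1 (0.104) or 2 (0.171).

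In the membrane skeleton list 0 of 16 genes were higher and 2 lower in 3D, beside 9.74% and 9.25% of all genes. Between regions 3 of 17 were higher and 2 lower inside, beside 9.58% and 12.1% of all genes. The 2 lower in 3D were *Epb41l3* (-0.47) and *Epb41l4a* (-0.65), relatives of the red cell protein 4.1, named after their values were seen. Inside the organoid *Ank2*, gamma-adducin (*Add3*) and *Epb41l2* (0.73, named after its value was seen) were higher, and *Ank3* and *Sptan1* lower. *Add3*, which caps actin and recruits spectrin, had a log2 fold change of 1.01 (SE 0.36, adjusted p = 0.0453), and over 15 alternatives its adjusted p ranged from 0.0360 to 0.222. It lost its call in 8 of them, among these without internal sample 1 (0.138) or 2 (0.136) and without external sample 2 (0.222) or 3 (0.0544).

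Among the protocadherins and Fat cadherins 0 of 10 genes were higher and 1, *Pcdh9* (-0.89, named after its value was seen), lower in 3D, beside 9.74% and 9.25% of all genes. Between regions 3 of 9 were higher inside and none lower, beside 9.58% and 12.1% of all genes. *Fat4*, a giant cadherin of planar cell polarity, had 84, 78, 9 and 77 reads inside and 2, 7 and 1 reads outside, and its fitted log2 fold change of 2.92 (SE 0.76, adjusted p = 0.00691) depends on the small constant added to such low counts. The call was lost with precision weights (adjusted p = 0.102). The other 2 were *Fat1* (0.68) and *Pcdh18* (0.90), named after their values were seen.

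Among the immunoglobulin-type adhesion molecules 4 of 11 were higher and 0 lower in 3D, beside 9.74% and 9.25% of all genes, with a median log2 fold change of 0.58 (-0.03 over all genes). *Cadm2*, a synaptic-type adhesion molecule, had 4 to 25 reads in the 2D samples and 51 to 94 reads in the 3D samples, with a log2 fold change of 2.50 (SE 0.51, adjusted p = 0.00897) that passed in all 17 alternatives. The other 3 were *Vcam1* (0.98), a ligand of integrins, *Cd99l2* (0.58) and *Cd47* (0.52), the ligand of a receptor that restrains phagocytes, named after their values were seen. Between regions 2 of 10 were higher inside, *Cadm2* (0.87) and *Vcam1* (0.65), and *Alcam* was lower (-0.62), beside 9.58% and 12.1% of all genes.

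**Figure D5:**
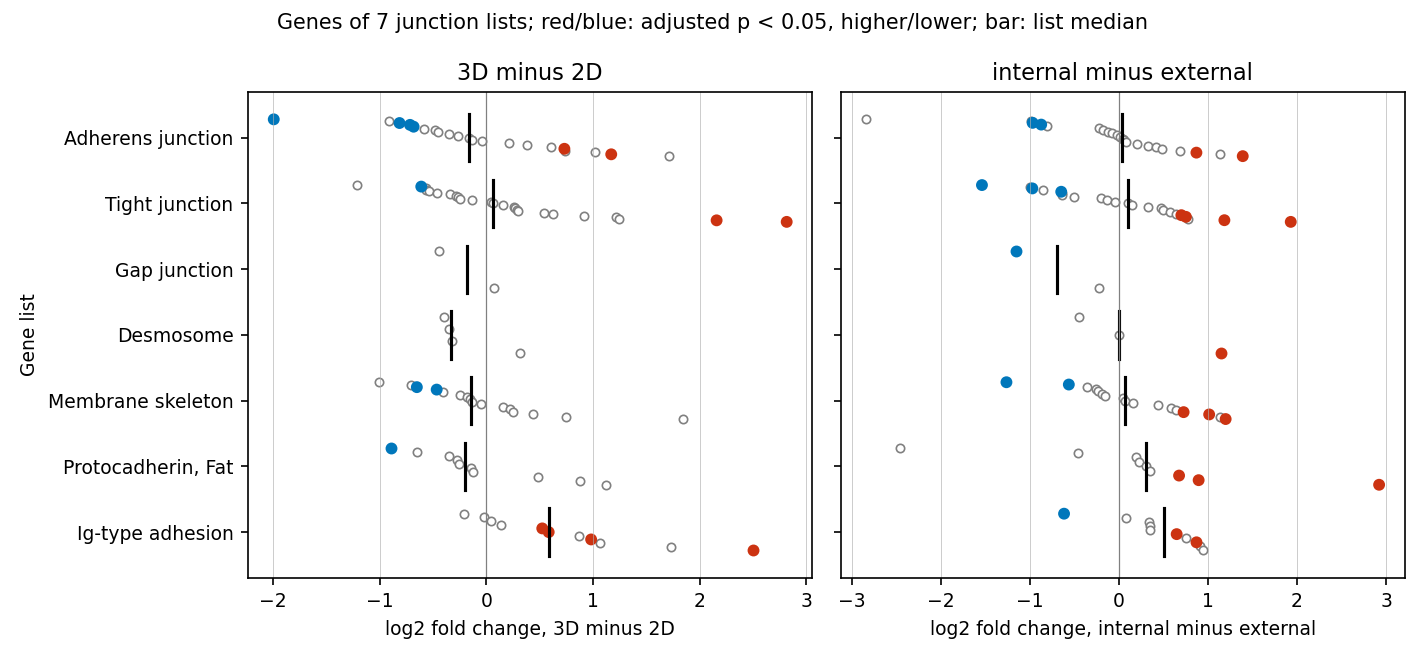
Log2 fold changes (horizontal axis) of the genes of 7 junction lists (rows), 3D minus 2D on the left and internal minus external on the right, with a point for each gene, red or blue for an adjusted p under 0.05 with a higher or lower level, open gray for the rest, and a black bar for the median of the list. Called genes lie on both sides of 0 in the adherens and tight junction lists of both panels.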

How the data were processed

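The data were 3′ end RNA-sequencing libraries of 21EM15 cells (2D, n = 4; 3D, n = 4; Internal, n = 4; External, n = 3). Per the paper's methods and the submitters' processing notes, the authors trimmed reads, aligned them with STAR 2.7.8a to GRCm38.p6, kept unique hits and counted sense reads per gene with featureCounts 1.6.0. The release of the annotation is not given in the sources used here. The deposited values are log2 CPM per sample, reads scaled to library size by the authors, in 2 tables normalized separately after a filter on low genes, so that a gene without a row has no value here. A low gene's log2 value includes a small prior that shrinks its fold change. Columns with the authors' own fold changes and p-values, and their group means, were not used. The authors kept the 3 external samples after viewing a principal component plot and removed a further one that differed from them, which was not analysed here. The spread of the external samples and their distance from the internal ones are therefore those of a selected set. The p-values between regions rest on that set.

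Whole reads were recovered from the log2 values for 100.0% of them (tolerance 0.01 reads), which gave the reads per sample. PCR duplicates could not be removed without molecular identifiers, so the reads cover counting error only. No count model was run. Within each table, limma 3.58.1 (R 4.3.3) was fitted to the log2 values over all genes, moderating the variances along a trend on mean expression. The p-values are two-sided and were adjusted after Benjamini and Hochberg across the whole table, and a gene passed at an adjusted p under 0.05. The fit was tested on simulated data. Per the paper's methods a replicate was its own dish or pool of organoids, but whether these were grown on separate days or from separate passages is not given in the sources used here, so the p-values measure only the spread between these samples. All pairs of samples in a group differed by more than sampling noise (chi-square per degree of freedom 13.3 to 57.6).

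The members and the gene lists were chosen with earlier results of these data known. Some genes of the lists are not reported here. Named were the 9 genes, 7 direct partners, *Gjc1* and, per comparison and direction, up to 5 other junction genes, taken by size of change from those that passed, changed by more than 1 log2 unit and averaged 2 log2 CPM or more where higher. Others are marked as named after their values were seen. Alternatives were a replicate block, no variance trend, a robust prior, median centring, median-of-ratios scaling, log2(CPM + 1), precision weights (voom), a filter that kept means from 1 log2 CPM, each sample left out, and stricter thresholds. Leaving out both samples numbered 2 was added after seeing the data. Gene positions are from GENCODE (GRCm38), in which 11676 of 11677 and 11298 of 11299 gene IDs matched. No annotated gene overlaps the 3′ end of a member on either strand, and no coding transcript of a member shares a stretch of 50 bases in its last 300 bases with another gene. Elsewhere genes on the same strand overlap *Ank2* (14 genes), *Cdh11* (4), *Tjp1* (2) and *Ctnnd1* (1). A single transcript of *Jup*, not a coding one, shares such a stretch with 53 genes. The effect of these on the reads was not tested.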

Additional observations from a re-analysis of the deposited data

Results flagged for a closer look

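With 26 groups of 4 samples tested for a value far from the other 3 (9 genes in 2D and 3D, 8 in Internal), 3 stood out by Dixon's criterion, where chance gives about 1 in 20. All 3 were the lowest value of 3D sample 2. *Ctnnd1* stood there at 0.977 log2 CPM, with a gap to the next sample of 0.852 of the group's range, *Gja1* at 3.07 log2 CPM with a gap of 0.879, and *Cdh11* at 4.36 log2 CPM with a gap of 0.840. For *Cdh11* the whole range of the 3D group was narrow, from 4.36 to 4.71 log2 CPM. For *Ctnnd1* and *Gja1* the 2D sample that bears the same number was also the lowest of its group, at -0.12 and 3.23 log2 CPM. What links the 2 samples was not tested.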

How the results depend on the processing

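The count of the 8 members that passed in the culture comparison was 1, and it was 4 with the replicate block and 0 at an adjusted p under 0.01, with or without the fold change over 1. Leaving out one sample gave 0 to 2. Between regions the count was 3, with 2 to 4 when one sample was left out. For the wider junction lists the count in culture was 16, against 25 with the replicate block, 6 at an adjusted p under 0.01 and 2 with the fold change as well, and 7 (without 3D sample 3, where 9.82% of all genes passed) to 24 (without 2D sample 2, 24.3%) when one sample was left out. Between regions it was 24, against 15 without a variance trend (where 13.2% of all genes passed, against 21.7%), 13 and 6 at those thresholds, and 14 (without external sample 2, 15.8% of all genes) to 24 (without external sample 1, 20.3%) when one sample was left out. Whether the replicate numbers of the labels pair the samples is not given in the sources used here. Same-numbered samples deviated together with correlations of 0.23, 0.50, 0.07 and 0.01 in culture and of -0.04, -0.07 and -0.06 between regions. In culture the samples numbered 1 and 2 correlated best with their own number, and those numbered 3 and 4 did not. The correlations leave the pairing unsettled, so the block is given as an alternative only. With the block *Cdh11*, *Jup* and *Ank2* passed beside *Cdh2* in culture (adjusted p = 0.0373, 0.0234 and 0.0358), and *Gjc1*, *Cxadr* and *Add3* did not pass between regions (0.0669, 0.0671 and 0.0650). Over all genes the block moved the calls from 1137 higher and 1080 lower to 1343 and 1337 in culture, and from 1083 and 1370 to 702 and 1084 between regions.

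Signs turned only for genes that had not passed. Beside those given with *Ctnnd1*, *Tjp1*, *Gja1* and *Ctnna1* (the lowest and highest values when one sample was left out were -1.60 and 0.63, -0.16 and 0.28, -1.16 and 0.18, and, between regions, -0.10 and 0.11, with -0.47 and 0.21 for *Gja1*), these were in culture *Ctnnb1* (-0.12 to 0.029) and *Gjc1* (-0.14 to 0.20), and between regions *Jam3* (-0.17 to 0.048) and *Afdn* (-0.060 to 0.094, and -0.060 with the block, -0.052 after median centring and -0.0013 after median-of-ratios scaling). Of 703 values of single genes under the alternatives 620 kept sign and call. The causes were not tested. *F11r* held as few as 2 reads in a sample, and *Ctnnd1* and *Fat4* as few as 1 in a region sample. The part of depth in their spread was not tested.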

Other observations

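Transcription factors that are known to repress E-cadherin, a list of 7 genes, had rows for 5 in each table, and their values are given here without an explanation. *Zeb1* was higher in 3D than in 2D, with a mean of 6.85 ± 0.23 against 6.12 ± 0.04 log2 CPM (SD, n = 4 each) and a log2 fold change of 0.73 (SE 0.14, adjusted p = 0.00639 by limma). It was also higher inside the organoid than outside, with a log2 fold change of 0.57 (SE 0.15, adjusted p = 0.00836). *Zeb2* was higher inside (0.78, SE 0.15, adjusted p = 0.000375) and had a log2 fold change of -0.07 between 3D and 2D (SE 0.14, adjusted p = 0.767). *Snai2*, *Twist1* and *Twist2* passed in neither comparison, with adjusted p from 0.114 to 0.907. *Zeb1* was 1 of 5 genes of the list called in culture, and *Zeb1* and *Zeb2* were 2 of 5 between regions, beside 19.0% and 21.7% of all genes.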
